A study of Mus musculus with 6 samples.

Results

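Clock repressors are the genes whose products turn the circadian activators off, and 8 of them were followed in mouse lungs taken at ZT10: Per1, Per2, Per3, Cry1, Cry2, Ciart, Bhlhe40 and Bhlhe41. They were picked by symbol from the 47069 genes of the count table, where each symbol had 1 row, and all 8 passed the filter on low counts that left 17037 genes for testing. The rule that picks them uses the symbol alone, but the members were chosen with earlier results of these data known.

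The study compared adult wild type C57BL/6J mice (WT4, WT5 and WT6) with knock-out mice that carry a deletion of exons 1 to 3 of Zpbp2 (KO4, KO5 and KO6), a line kept on a C57BL/6J background, with 1 lung library per mouse. Both groups came from the same colony, lived under a light/dark cycle and were sampled at the same Zeitgeber time, ZT10, in the later part of the light phase. The deletion is an allele of the strain and is not limited to a cell type. Each library is of whole lung, so a difference cannot be assigned to a cell of the lung from these data. The question put to these lungs was whether the loss of this piece of DNA goes with a changed expression of clock genes and of genes that depend on them.

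In the circadian clock the proteins CLOCK (or NPAS2) and BMAL1, which is encoded by Arntl, bind E-box sequences and switch on the Per and Cry genes. PER and CRY proteins then gather in a complex that enters the nucleus and stops CLOCK and BMAL1 from acting, and their slow loss lets the next cycle begin. Ciart, also called Chrono, encodes a further repressor of the BMAL1 complex, and Bhlhe40 and Bhlhe41, also called Dec1 and Dec2, encode repressors that occupy E-boxes themselves. In the lung of nocturnal rodents the Per genes are known to reach their highest RNA levels around the end of the light phase, close to the hour sampled here.

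The promoters were searched for elements through which clock genes are known to be regulated. Of these promoters, 4 are printed to set Ciart, the member with the lowest adjusted p, beside a cryptochrome and 2 period genes. The sequences are from RefSeq for build GRCm38.p6, run from 250 bases before the annotated start to 50 bases from it, and are written 5′ to 3′ on the strand of the gene. Capitals mark the canonical E-box CACGTG, the E-box-like element CACGTT and the D-box TTATGNAA, which is bound by the clock output factors DBP, TEF and HLF, each searched on both strands. The windows are chr3:95882179-95882478 (minus strand) for Ciart, chr10:85185005-85185304 (minus strand) for Cry1, chr11:69098699-69098998 (plus strand) for the first of 2 Per1 starts and chr4:151044616-151044915 (minus strand) for Per3.
Ciart: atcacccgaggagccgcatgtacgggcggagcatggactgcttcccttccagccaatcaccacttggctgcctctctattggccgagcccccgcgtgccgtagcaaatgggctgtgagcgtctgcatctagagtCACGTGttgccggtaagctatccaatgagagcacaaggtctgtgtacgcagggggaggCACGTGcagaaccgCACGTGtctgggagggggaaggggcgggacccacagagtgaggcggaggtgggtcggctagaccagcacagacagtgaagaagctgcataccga
Cry1: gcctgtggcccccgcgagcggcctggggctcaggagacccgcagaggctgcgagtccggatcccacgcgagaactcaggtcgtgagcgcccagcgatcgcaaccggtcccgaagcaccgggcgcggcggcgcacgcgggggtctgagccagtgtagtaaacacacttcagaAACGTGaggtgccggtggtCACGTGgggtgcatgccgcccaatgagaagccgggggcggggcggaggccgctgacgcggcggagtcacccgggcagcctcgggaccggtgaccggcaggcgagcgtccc
Per1: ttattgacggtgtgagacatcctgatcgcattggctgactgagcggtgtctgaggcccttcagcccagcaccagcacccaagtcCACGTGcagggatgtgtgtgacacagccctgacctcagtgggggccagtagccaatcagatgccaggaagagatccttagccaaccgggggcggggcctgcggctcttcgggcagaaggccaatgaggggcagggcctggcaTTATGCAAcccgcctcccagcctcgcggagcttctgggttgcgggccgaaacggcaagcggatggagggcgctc
Per3: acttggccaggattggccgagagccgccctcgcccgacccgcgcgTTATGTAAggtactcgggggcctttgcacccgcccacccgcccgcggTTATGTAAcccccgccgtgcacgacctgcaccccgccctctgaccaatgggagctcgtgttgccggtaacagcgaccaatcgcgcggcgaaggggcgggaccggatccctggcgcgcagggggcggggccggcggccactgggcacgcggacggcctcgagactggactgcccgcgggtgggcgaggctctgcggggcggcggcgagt
The Ciart window held the canonical E-box 3 times, starting at -116, -58 and -44 relative to the start site. Of 32851 promoter windows of the same length, 7.15% held at least 1 canonical E-box and 29 windows (0.0883%) held 3 or more. Cry1 carried 1 canonical E-box at -60 and 1 E-box-like element at -79, Per1 had 1 canonical E-box at -166 and 1 D-box at -24, and Per3 had no E-box of either kind but 2 D-boxes, at -205 and -158. A D-box was present in 3.38% of all windows and 2 or more in 0.161%. The window of Bhlhe41 (chr6:145865371-145865670, minus strand) held 1 canonical E-box at -153, that of Cry2 (chr2:92434020-92434319, minus strand) held 1 E-box-like element at -166, an element found in 4.68% of windows, and the window of the second Per1 start held none of these letters. None of the member windows held the cAMP response element TGACGTCA or the elements of the glucocorticoid receptor, of heat shock factor or of REV-ERB and ROR, which 1.79%, 0.475%, 0.603% and 0.606% of all windows held. A match in this search is a description of the letters and not a measured binding site, and Per2 and Bhlhe40 were not among the 6 members with an entry.

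The gene counts of a mouse summed to 19981428 at the least (KO6) and 46796908 at the most (KO5). Levels are given as CPM, the count scaled by the size of its library, and 3 counts equalled between 0.0629 and 0.148 CPM. The 8 members were far above that floor, with 568 to 9464 counts each per mouse. For Zpbp2, the targeted gene, each WT mouse had 1 or 2 counts and each KO mouse 0, too few to check the deletion from these libraries. The markers of lung tissue were present in all 6 mice, and all 9 of these genes, among them Sftpc of type 2 alveolar cells and Cldn5 of endothelium, were tested. The sex of each mouse is not in the labels. Xist was counted 15033 to 47369 times in every mouse, while 4 genes of the Y chromosome summed to at most 1 count per mouse except in KO5, where they had 2 to 9 counts each, and of these 5 sex-linked genes Xist alone was tested (log2 fold change 0.32, adjusted p = 0.0616, edgeR's quasi-likelihood test). On the first principal component, with 43.5% of the variance, the WT mice lay between -28.13 and -23.47 and KO4, KO6 and KO5 at 12.54, 22.02 and 43.09, so KO5 stood farthest from the WT mice.

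Of the 8 repressors, 2 were lower in KO mice at an adjusted p of at most 0.05, Ciart and Per2, and 0 were higher (edgeR's quasi-likelihood test, p adjusted over all genes tested by Benjamini-Hochberg). Over all 17037 genes 6.39% were called, 2.67% lower and 3.72% higher. Among the 10893 genes with a mean of at least 10 CPM, the range in which all 8 members lie, 7.68% were called and 3.76% were called lower. At an unadjusted p of at most 0.05 by the same edgeR test, 4 of the 8 repressors passed (Ciart, Per2, Cry1 and Cry2), beside 25.5% of all genes tested. The fold differences were small. None of the members reached the log2 fold change of 1.5 in size that the study required of a differentially expressed gene, which 0.640% of genes reached together with the p threshold. The median log2 fold change of the 8 repressors was -0.13, beside 0.00295 over all genes tested, with 5 below zero and 3 above. In 4 lists of other clock genes, read below, the medians ran from -0.14 (clock output genes) to 0.039 (clock activators). The 9 lung markers had a median of -0.23. In whole lung a lower level can mean less RNA per cell or fewer cells of a type that express the gene, and the counts cannot tell these apart.

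Ciart (ENSMUSG00000038550), on chromosome 3 between 95878503 and 95882251 of GRCm38, led the repressors in the size and the p of its difference. Its RNA stood at 39.2, 39.2 and 37.8 CPM in WT4, WT5 and WT6 and at 28.9, 27.4 and 28.1 CPM in KO4, KO5 and KO6. The KO mice lay wholly below the WT mice, and the values varied by less than 1 CPM (SD) within each group. Ciart RNA fell by 27.4% (95% interval from -33.5% to -20.8%), or -0.46 on the log2 scale (standard error 0.0537, adjusted p = 0.0120, edgeR's quasi-likelihood test). Among all genes tested it ranked at position 68 by p.

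Per2 (ENSMUSG00000055866, chromosome 1 from 91415982 to 91459324) encodes a period protein that binds CRY in the repressor complex. In WT4, WT5 and WT6 it measured 161.6, 168.1 and 181.6 CPM, and in KO4, KO5 and KO6 it measured 124.7, 135.7 and 124.6 CPM. Every KO mouse was below every WT mouse, with a gap of 0.25 on the log2 CPM scale between the highest KO and the lowest WT value. Per2 RNA fell by 24.7% (95% interval from -32.1% to -16.4%), or -0.41 on the log2 scale (standard error 0.0640, adjusted p = 0.0223, edgeR's quasi-likelihood test).

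At the adjusted threshold both calls were lost on leaving out any 1 of 3 of the 6 mice. The adjustment over all genes had a part in this. By edgeR's quasi-likelihood test the unadjusted p of Ciart was 0.000422 without WT5, where it was not called. It was 0.000423 without WT4, where Ciart was called. Without WT5, WT6 or KO6 the adjusted p was 0.0775, 0.0563 and 0.0509 for Ciart and 0.107, 0.0699 and 0.0722 for Per2 (edgeR's quasi-likelihood test), and 0 of the 8 members were called, while without WT4, KO4 or KO5 the same 2 were. The number of all genes called moved with these mice too, from 1089 to 1 without WT5, 63 without WT6, 117 without KO6 and 254 without WT4, and it was 1278 without KO4 and 933 without KO5. The log2 fold changes themselves stayed between -0.48 and -0.45 for Ciart and between -0.46 and -0.36 for Per2 with each mouse left out in turn.

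**Figure D1:**
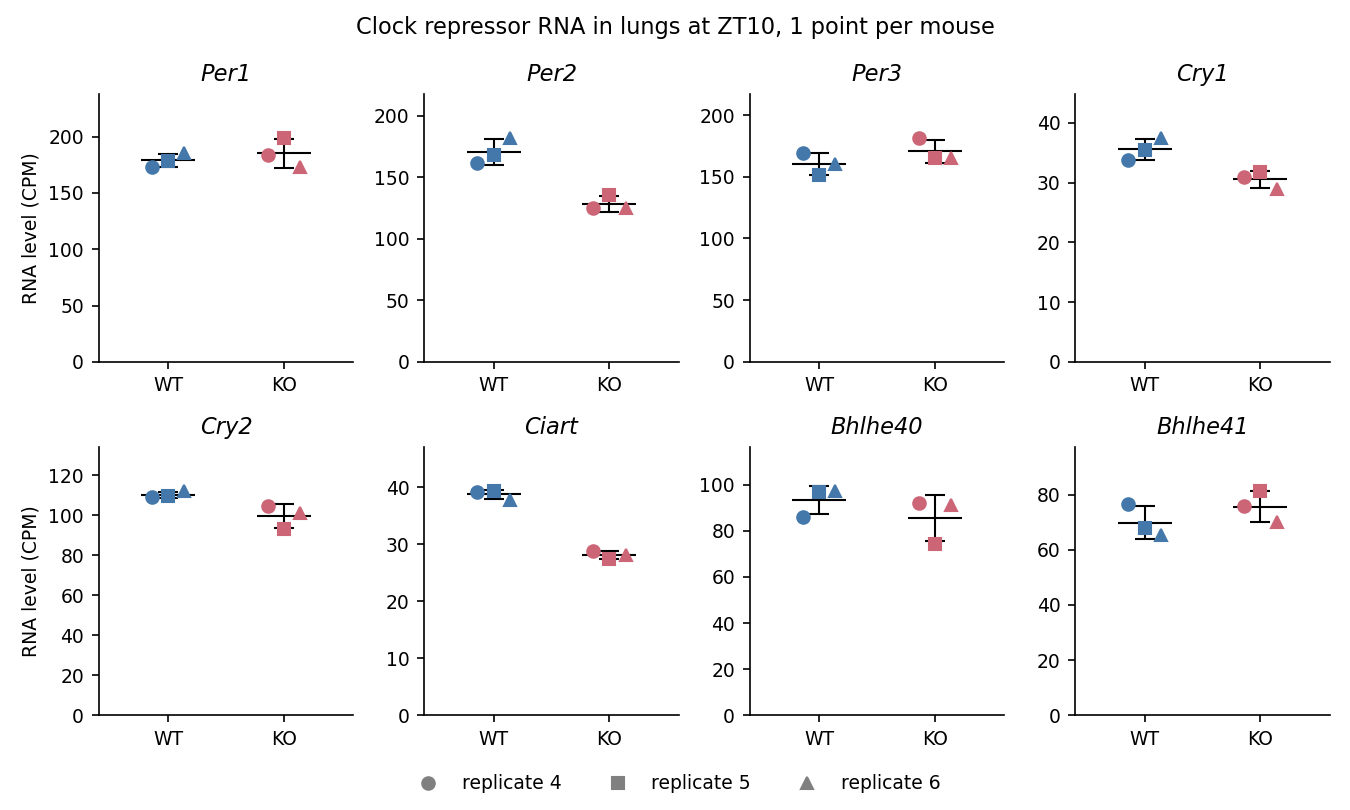
RNA level in CPM (vertical axis, from 0) of the 8 clock repressors in lungs of 3 WT and 3 KO mice at ZT10. Each mouse is 1 point (circle for replicate 4, square for 5, triangle for 6), and the black bar is the mean with its SD. The labels do not pair mice across groups by these numbers. The KO points lie below all WT points for Per2, Cry1, Cry2 and Ciart, and the groups overlap for Per1, Per3, Bhlhe40 and Bhlhe41.

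The other period genes did not pass the test. Per1 (ENSMUSG00000020893, chromosome 11 from 69095217 to 69109960), an early-responding period gene, measured 173.1, 178.0 and 185.2 CPM in WT4, WT5 and WT6 and 183.4, 198.5 and 173.1 CPM in KO4, KO5 and KO6. The groups overlapped, with KO5 the highest and KO6 level with WT4 at the bottom. Per1 had a log2 fold change of 0.05 and a 95% interval from -0.10 to 0.20 (adjusted p = 0.675, edgeR's quasi-likelihood test), and without KO5 it was -0.0078. Per3 (ENSMUSG00000028957, chromosome 4 from 151003652 to 151044665), which is dispensable for the core rhythm, measured 169.5, 151.1 and 160.3 CPM in the WT mice and 181.2, 164.8 and 165.5 CPM in the KO mice. WT4 lay above 2 of the KO mice, so the groups overlapped here too. The log2 fold change of Per3 was 0.09 with a 95% interval from -0.06 to 0.24 (adjusted p = 0.438, edgeR's quasi-likelihood test). Without KO4 or WT5 it was 0.041 and 0.046. For both genes the interval leaves out a fall as large as that of Per2 or Ciart.

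Ratios within a mouse do not depend on how libraries are scaled, and they give the differences of the members above relative to each other, as a description. The log2 ratio of Per2 to Per1 was -0.099, -0.083 and -0.028 in WT4, WT5 and WT6 and -0.56, -0.55 and -0.47 in KO4, KO5 and KO6, a mean difference of -0.46. The SD of this ratio was 0.037 among the WT mice and 0.045 among the KO mice. For Per2 to Per3 the difference was -0.50, with ratios of -0.07 to 0.18 in WT mice and -0.54 to -0.28 in KO mice. The ratio of Ciart to Per1 differed by -0.51, from -2.29 to -2.14 in WT mice and from -2.85 to -2.62 in KO mice. Each of these 3 ratios was lower in 3 of 3 KO mice than in any WT mouse, and the two-sided exact permutation test gave p = 0.1 for each, the smallest p that 3 mice against 3 allow, or 0.209 after Benjamini-Hochberg adjustment over the 23 ratios computed. In contrast the ratio of Ciart to Per2 overlapped between groups, with a difference of -0.053 (exact permutation p = 0.5), as did that of Per1 to Per3, with a difference of -0.041 (exact permutation p = 0.9).

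**Figure D2:**
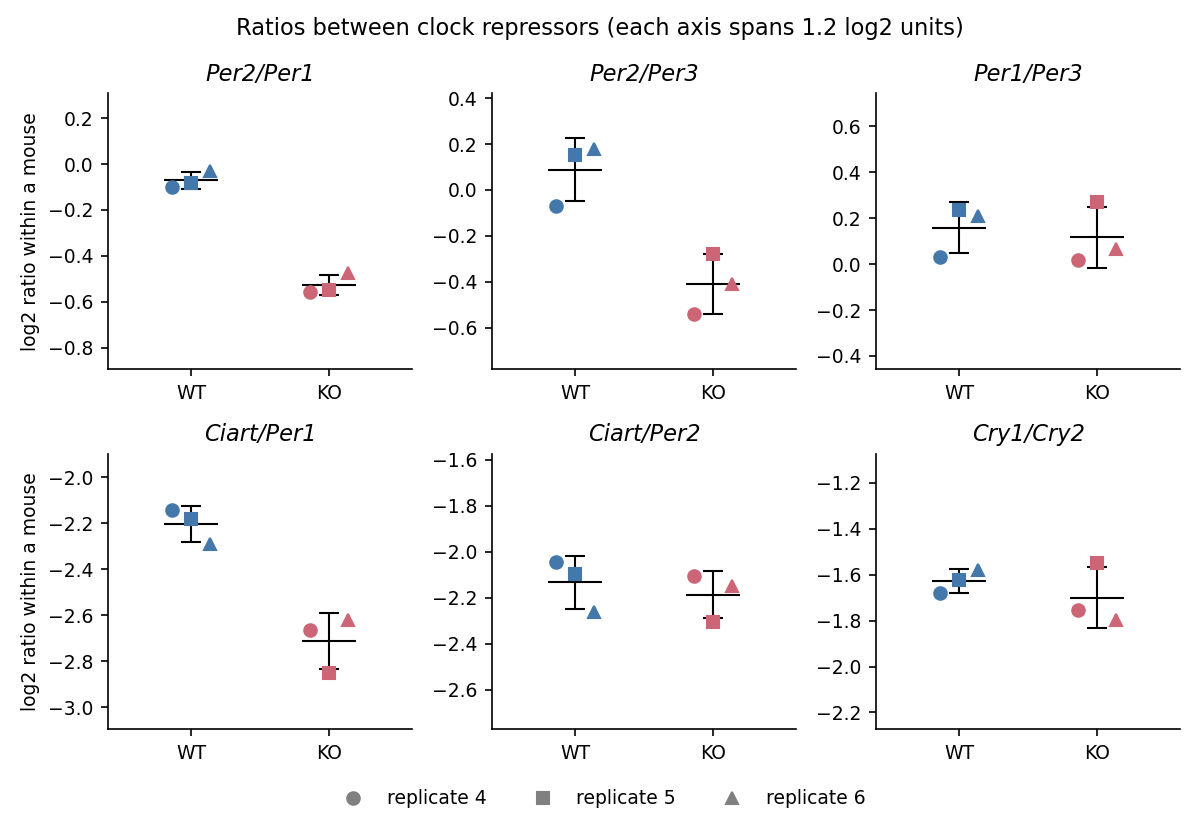
Log2 ratio of the CPM values of 2 clock repressors within each mouse (vertical axes, each spanning 1.2 log2 units) for 3 WT and 3 KO mice, with the mean and its SD as black bars. Per2/Per1, Per2/Per3 and Ciart/Per1 are lower in every KO mouse, while Per1/Per3, Ciart/Per2 and Cry1/Cry2 overlap.

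The cryptochromes, the partners of PER proteins that carry most of the repression of CLOCK and BMAL1, were lower in each KO mouse but did not pass the test. Cry1 (ENSMUSG00000020038, chromosome 10 from 85131700 to 85185064) measured 33.9, 35.5 and 37.4 CPM in WT4, WT5 and WT6 and 30.9, 31.8 and 29.0 CPM in KO4, KO5 and KO6. Its log2 fold change was -0.22 (95% interval from -0.37 to -0.06, unadjusted p = 0.0121, adjusted p = 0.0941, edgeR's quasi-likelihood test). Cry2 (ENSMUSG00000068742, chromosome 2 from 92403646 to 92434043) measured 108.8, 109.4 and 111.8 CPM in the WT mice and 104.7, 93.2 and 101.0 CPM in the KO mice. The WT mice were nearly equal in Cry2 and the KO values lay below them, with KO5 the lowest. The log2 fold change of Cry2 was -0.14 (95% interval from -0.27 to -0.01, unadjusted p = 0.0354, adjusted p = 0.162, edgeR's quasi-likelihood test). Over all alternative settings the adjusted p stayed between 0.0860 and 0.236 for Cry1 and between 0.107 and 0.364 for Cry2. The ratio of Cry1 to Cry2 overlapped between groups, with a difference of -0.074 on the log2 scale (exact permutation p = 0.4).

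With Ciart, Per2, Cry1 and Cry2, 4 of the 8 repressors had KO values that lay wholly below the WT values, and 0 had them wholly above. Over all genes tested 15.6% did not overlap in this direction and 17.0% in the other, and among genes with a mean of at least 10 CPM the share wholly lower was 20.0%. In either direction 32.6% of all genes tested did not overlap.

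The DEC repressors overlapped between groups and went opposite ways in their means. Bhlhe40 (ENSMUSG00000030103, chromosome 6 from 108660629 to 108666925) measured 86.2, 96.9 and 97.1 CPM in WT4, WT5 and WT6 and 91.95, 74.3 and 91.1 CPM in KO4, KO5 and KO6, so that KO5 alone lay below the WT mice. Bhlhe40 had a log2 fold change of -0.12 with a 95% interval from -0.35 to 0.10 (adjusted p = 0.455, edgeR's quasi-likelihood test), and it was -0.032 without KO5. Bhlhe41 (ENSMUSG00000030256, chromosome 6 from 145858243 to 145865558) measured 76.6, 67.8 and 65.2 CPM in the WT mice and 75.7, 81.1 and 70.0 CPM in the KO mice, with KO5 the highest. The log2 fold change of Bhlhe41 was 0.12 with a 95% interval from -0.07 to 0.31 (adjusted p = 0.416, edgeR's quasi-likelihood test). It was 0.057 without KO5, 0.064 without WT6 and 0.19 without WT4. The log2 ratio of Bhlhe40 to Bhlhe41 was -0.13 in KO5 and between 0.17 and 0.57 in the other 5 mice. Of the exon sequence of Bhlhe41, 1280 bases (19.1%) are shared with Gm43909 on the opposite strand, which had 12 to 39 counts per mouse, and since the strand setting of the counting is not stated, reads from that stretch may be missing from either gene.

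Bhlhe40 and Bhlhe41 are also known as regulators in alveolar macrophages and lymphocytes, and the markers of these cells were read beside them. Of 8 alveolar macrophage markers, 1 was called higher (Marco, a scavenger receptor, log2 fold change 1.26, adjusted p = 0.00665, edgeR's quasi-likelihood test) and the median was 0.23. Ear2 had the next lowest adjusted p of these markers, with a log2 fold change of 0.44 (adjusted p = 0.187, edgeR's quasi-likelihood test). Their summed level was 487.6 to 805.2 CPM in WT mice and 648.0 to 816.0 CPM in KO mice. All 10 B cell markers were wholly above the WT range in KO mice, with a median log2 fold change of 1.91 and summed levels of 139.4 to 153.7 CPM in WT mice against 259.3 in KO4, 1096 in KO5 and 312.0 in KO6, although 0 of them passed the test (Blk and Cd79a had the lowest adjusted p, 0.0690 and 0.0717, by edgeR's quasi-likelihood test). Of 12 monocyte markers 10 were called higher, with a median log2 fold change of 1.15 and the lowest adjusted p for Plac8 (1.46) and Cx3cr1 (1.52). The summed level of the 12 was 1798 to 1842 CPM in WT mice and 1979 to 2291 CPM in KO mice. Most of this sum came from 1 marker, with 35722 counts in WT4 where the next highest had 3793. Of 8 T cell markers, 0 were called and 6 lay wholly above the WT range, with a median log2 fold change of 0.87, summed levels of 47.8 to 59.3 CPM in WT mice and 62.1 to 152.0 CPM in KO mice, and Cd4 (1.30) and Cd3d (0.98) at the lowest adjusted p. Of the 9 lung markers, 1 was called lower (Cldn5, log2 fold change -0.31), Hopx (-0.22) had the next lowest adjusted p, and the median was -0.23. The shares over all genes tested were 3.72% called higher, 2.67% called lower and 17.0% wholly above the WT range. In each of these marker lists 0 genes were without counts. KO5 thus stood apart in B cell markers, as it did in Bhlhe40 and in Arntl, and the part of these cells in any level of the repressors was not tested. Ciart (-0.45) and Per2 (-0.46) were still called without KO5. KO4 and KO6 also lay above the WT mice in summed B cell markers, so that fit does not test the part of these cells.

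Compared per length, as CPM per kb of annotated exon, Per1 and Per2 RNA were the most abundant of the repressors in WT lungs. Per1 stood at 31.7 ± 1.08 CPM per kb and Per2 at 29.1 ± 1.74 CPM per kb (SD, n = 3), and their ranges overlapped. Bhlhe40 followed at 19.9 ± 1.33 CPM per kb, with its lowest WT value above the highest of the genes that come after it. Cry2 (17.4 ± 0.258), Ciart (17.1 ± 0.358) and Per3 (16.7 ± 0.957 CPM per kb) formed a group with overlapping neighbours, and Cry1 (10.7 ± 0.535) and Bhlhe41 (10.4 ± 0.891 CPM per kb) came last and overlapped each other. In KO lungs Per1 led at 32.9 ± 2.27 CPM per kb, and Per2, at 21.9 ± 1.10 CPM per kb, no longer overlapped it. Ciart came after Per3 in this order in KO lungs, at 12.4 ± 0.327 CPM per kb, below Per3 and Cry2 in every KO mouse.

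The genes around the repressors in the clock were read in the same fit from 4 lists. Of 23 such genes, all of them tested, 1 was called lower and 0 higher. Over all genes tested 6.39% were called, 2.67% lower. The median log2 fold change of the 23 genes was -0.091. The called gene was Csnk1e, the kinase that marks PER proteins for degradation. It measured 133.3, 132.4 and 128.9 CPM in WT4, WT5 and WT6 and 117.8, 114.1 and 112.5 CPM in KO4, KO5 and KO6, or -0.20 on the log2 scale (standard error 0.0451, adjusted p = 0.0493, edgeR's quasi-likelihood test). The KO values lay wholly below the WT values, but the call was at the edge of the threshold, and 0 of the 23 genes were called with any 1 mouse left out. Csnk1d, the sister kinase, had a log2 fold change of -0.13 (adjusted p = 0.173, edgeR's quasi-likelihood test). Of the other kinases, ubiquitin ligases and partners of PER and CRY (Gsk3b, Fbxl21, Btrc, Fbxw11, Usp2, Timeless, Nono and Wdr5), 0 passed the test, with log2 fold changes from -0.11 for Usp2 to 0.39 for Fbxl21.

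Among the activators that the repressors act on, 0 of 4 passed the test. Clock measured 78.6, 83.7 and 81.0 CPM in the WT mice and 64.7, 72.2 and 74.3 CPM in the KO mice, a log2 fold change of -0.20 (unadjusted p = 0.0140, adjusted p = 0.102, edgeR's quasi-likelihood test). Arntl, which is near its lowest level in the day when the Per genes are near their highest, measured 3.62, 3.79 and 3.69 CPM in the WT mice and 4.11, 7.13 and 4.30 CPM in the KO mice. All 3 KO mice lay above the WT mice for Arntl and KO5 far above the other two. The log2 fold change of Arntl, 0.50, had a 95% interval from -0.04 to 1.04 (adjusted p = 0.228, edgeR's quasi-likelihood test) and was 0.18 without KO5. Npas2 and Arntl2, at 1.68 to 4.74 CPM, had log2 fold changes of 0.17 and -0.10. The log2 ratio of Per2 to Arntl ranged from 5.44 to 5.60 among WT mice and from 4.24 to 4.90 among KO mice, and that of Ciart to Arntl was 3.33 to 3.41 in WT mice and 1.93 to 2.79 in KO mice. Arntl was itself wholly higher in KO mice and is shared by all ratios to it, so these restate its difference in part, and without KO5 the mean difference went from -0.84 to -0.63 for Per2 and from -0.89 to -0.62 for Ciart.

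The nuclear receptors that share response elements and drive or silence Arntl had 0 of 4 genes past the test. Nr1d2 measured 299.5, 283.8 and 294.5 CPM in the WT mice and 267.3, 258.0 and 267.0 CPM in the KO mice, wholly below, with a log2 fold change of -0.15 (adjusted p = 0.119, edgeR's quasi-likelihood test). Rora differed by -0.11 with the KO values wholly below the WT values (adjusted p = 0.185, edgeR's quasi-likelihood test), and Rorb, at under 1 CPM, by 0.67 with overlapping groups. Nr1d1 had a log2 fold change of -0.36 and overlapping groups (adjusted p = 0.136, edgeR's quasi-likelihood test). Of the ratios to Nr1d1, those of Per2 and Ciart differed by -0.068 and -0.12 on the log2 scale and overlapped between groups (exact permutation p = 0.9 and p = 0.5), while Per3 (0.43) and Bhlhe41 (0.46) were wholly higher relative to Nr1d1 in KO mice (exact permutation p = 0.1 for each, the smallest possible). For Per2 the ratio to Nr1d1 was -0.79, -0.88 and -0.25 in WT4, WT5 and WT6, so that WT6 alone stood above the KO mice, at -0.74, -0.56 and -0.83. The 5 clock output genes Dbp, Tef, Hlf, Nfil3 and Wee1 had log2 fold changes from -0.18 to -0.040, and 0 passed the test. Tef was the only one of these with KO values wholly below the WT values, at 464.2 to 501.5 CPM in KO mice and 517.8 to 556.6 CPM in WT mice (log2 fold change -0.14, adjusted p = 0.204, edgeR's quasi-likelihood test).

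**Figure D3:**
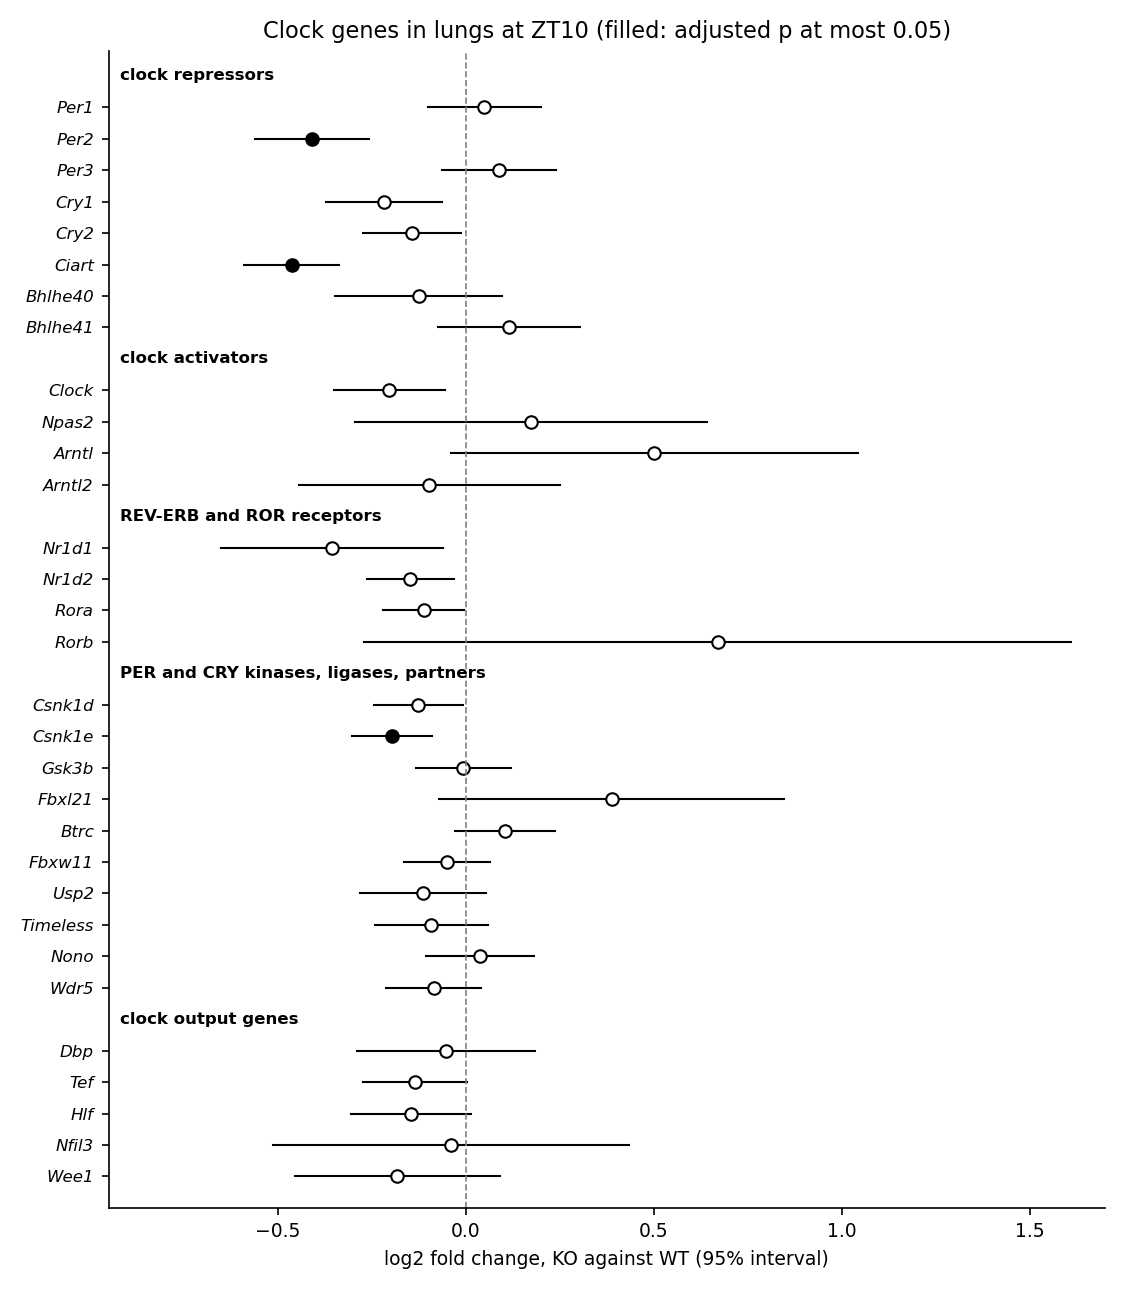
Log2 fold change of KO against WT mice (horizontal axis, points) with its 95% interval (lines) for the 8 clock repressors and 23 other clock genes in lungs at ZT10, filled where the adjusted p was at most 0.05. Per2, Ciart and Csnk1e are filled, at -0.41, -0.46 and -0.20, and the widest intervals belong to genes of few counts such as Rorb.

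Per1 and Per2 are also known to answer to signals from outside the clock, such as glucocorticoids, heat and acute stimuli, and the genes that report on these were read beside them. Of 8 glucocorticoid response genes 3 were called lower in KO mice, with a median log2 fold change of -0.41. The shares over all genes tested were 2.67% called lower and 3.72% called higher. Fkbp5, a co-chaperone of the glucocorticoid receptor, measured 78.4 ± 16.5 CPM in WT mice and 31.1 ± 3.91 CPM in KO mice (SD, n = 3), and Errfi1 measured 180.6 ± 2.47 CPM and 140.1 ± 3.99 CPM. Of 10 heat shock genes 8 were called lower, with a median log2 fold change of -1.14 and a summed level of 4312 to 5846 CPM in WT mice and 2325 to 2460 CPM in KO mice, with the lowest adjusted p for Hsph1 (-1.90) and Dnajb1 (-1.12), and 0 were higher. The cold-inducible genes Cirbp and Rbm3 were both called higher, with log2 fold changes of 0.96 and 0.58. Of 8 immediate early genes 0 were called, with a median of -0.47 and with Atf3 and Jun at the lowest adjusted p (0.154 and 0.164, edgeR's quasi-likelihood test), and their summed level ranged from 530.8 to 1236 CPM within the WT mice, with WT6 the highest. These differences went with the same 3 KO mice in which Per2 and Ciart were lower and Per1 overlapped, and their part in the levels of the repressors was not tested.

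The patterns of the repressors over the 6 mice were compared with those of 10885 other genes with a mean of at least 10 CPM by Pearson's correlation of log2 CPM, as a description without a test. The 6 points share the 2 genotypes, so that genes which differ between these can correlate through that alone. With only 6 points and 10885 genes searched, high values of r can also arise from the search itself. Closest to Ciart were Tcn2, a vitamin B12 carrier (r = 0.998), and Jag2, a Notch ligand (r = 0.997), both called lower in KO mice, with log2 fold changes of -0.29 and -0.52. Txlng (r = 0.997, called lower, log2 fold change -0.48) and Nutf2 (r = 0.995) were closest to Per2. For Cry1 these were Cdc42ep4 (r = 0.996) and Rassf1 (r = 0.994), and for Cry2 they were Tmco3 (r = 0.995) and Avpi1 (r = 0.994). Cdkn2aipnl and Rfwd3 (both r = 0.987) were nearest to Per1, and Golph3l (r = 0.994) and Cyp3a13 (r = 0.988) to Per3. Cfap57 (r = 0.996) and Clic6 (r = 0.995) followed Bhlhe40, and Lrrc8c (r = 0.997) and Adcy3 (r = 0.993) followed Bhlhe41. No gene of the other clock lists was among them. Only 2 genes were kept for each member, and genes with a mean under 10 CPM, such as Arntl, were not searched. Little can be read from this absence.

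**Figure D4:**
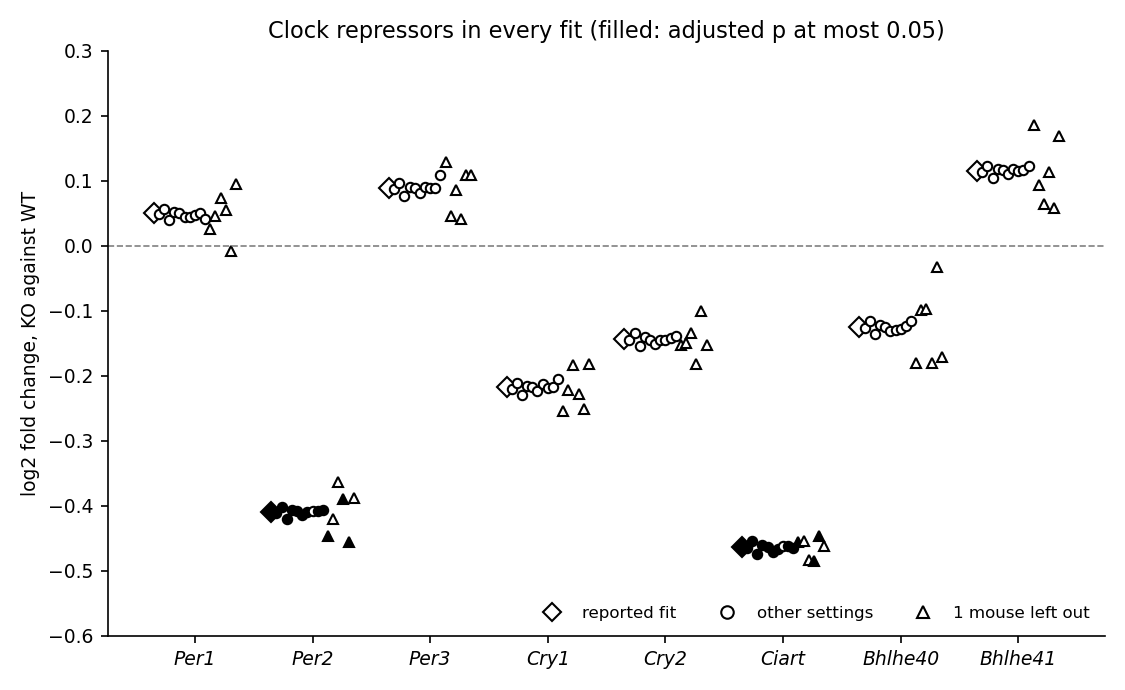
Log2 fold change of KO against WT mice (vertical axis) of each clock repressor in the reported fit (diamond), 10 other settings (circles) and 6 fits that each left out 1 mouse (triangles), filled where the adjusted p was at most 0.05. Ciart and Per2 stay between -0.48 and -0.36 in every fit and are filled in 12 of the 16 alternatives, and only Per1 crosses zero.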

How the data were processed

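Total RNA of 6 lungs was sequenced from stranded mRNA libraries. In the authors' GenPipes run Trimmomatic trimmed the reads, STAR placed these on GRCm38 and HTSeq gave a count per gene (versions 0.36 of Trimmomatic, 2.5.3a of STAR and 0.6.0 of HTSeq in the submitters' processing notes), and the deposited values are raw counts, 1 column per mouse. The annotation release and the strand setting are not given in the sources used here.

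KO and WT mice were compared in R 4.3.3 with edgeR 4.0.16 (glmQLFit and glmQLFTest, TMM scaling, default filterByExpr with a minimum count of 10 and a minimum total of 15, Benjamini-Hochberg adjustment, called at 0.05, no covariates). Intervals are 95% intervals from the fit. The standard error was taken as the log2 fold change divided by the square root of F. CPM used the scaled library sizes, and log2 CPM a prior count of 2. Each SD is over 3 mice. Floors cover counting error only. Exon lengths and positions came from GENCODE mouse release 21 for GRCm38, and the promoters from RefSeq for GRCm38.p6. Ratios were tested by two-sided exact permutation tests. Alternatives used DESeq2 1.42.0, limma 3.58.1, other scalings and filters, thinned counts, no immunoglobulin genes, the replicate number as a block, and each mouse left out in turn. The labels do not say more of the mice than their genotype, strain and time. P-values of the fit set the group difference against the spread between these 3 mice of each group. That spread was estimated with information shared across genes.

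The text names the 8 members, the genes of the clock lists, the 2 genes of lowest adjusted p in each list of markers or responses (lists of glucocorticoid, heat shock, cold-inducible and immediate early genes, and of B cell, T cell, monocyte, alveolar macrophage, lung and sex-linked genes), and the 2 genes most correlated with each member. Of the clock lists, 2 genes are not reported here and are left out of the counts and medians of these lists. The members and lists were chosen with earlier results of these data known.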

Additional observations from a re-analysis of the deposited data

How the results depend on the processing

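Over 10 other settings and 6 fits that each left out 1 mouse, the log2 fold changes of Per2, Per3, Cry1, Cry2, Ciart, Bhlhe40 and Bhlhe41 kept their direction, and 0 repressors were called higher in any of these. With the replicate number as a block, 0 repressors were called, with adjusted p-values of 0.0729 for Per2 (log2 fold change -0.41) and 0.0609 for Ciart (-0.46), and the count over all genes was 66, of which 36 were lower. The numbers do not pair the mice, since the deviations of same-numbered mice correlated at -0.0316, -0.154 and -0.0210. DESeq2 called 1847 genes, 782 of them lower, and 2 of the other clock genes, while upper-quartile factors, no filter, edgeR's exact test, limma-voom, the block and thinned counts called 0 of these. Nr1d1 had an adjusted p of 0.0306 under DESeq2. With upper-quartile factors the log2 fold change of Gsk3b was 0.0020.

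With 1 mouse left out, the number of repressors called lower lay between 0 and 2, of all genes called between 1 and 1278, of genes called lower between 1 and 481, and of other clock genes called at 0. The log2 fold change then ranged from -0.0078 to 0.10 for Per1, from -0.46 to -0.36 for Per2 and from -0.48 to -0.45 for Ciart. Signs changed near zero for Gsk3b (-0.051 to 0.021), Dbp (-0.15 to 0.047), Nfil3 (-0.26 to 0.069) and Nono (-0.0086 to 0.069), and for the ratios Per2/Nr1d1 (-0.19 to 0.13), Ciart/Nr1d1 (-0.22 to 0.0089), Per1/Per3 (-0.12 to 0.0083) and Ciart/Per2 (-0.12 to 0.0063). The cause of these changes was not tested. With 3 mice a group, a p that misses the threshold does not show that levels were alike.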
